A study of Mus musculus with 32 samples.

Results

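Cholesterol synthesis genes were examined by name across 3 cell types sorted from mouse islets. The set held 8 genes: *Hmgcs1*, *Idi1*, *Fdps*, *Fdft1*, *Sqle*, *Lss* and *Cyp51*, which encode enzymes of the pathway, and *Srebf2*, which encodes the transcription factor that switches those enzymes on. Of these 8, 7 had a row in the expression table of 22850 genes, and the expression of *Hmgcs1* was not analysed here. The set was drawn up for cholesterol synthesis and uptake, but none of its members is an uptake receptor.

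All 32 samples came from adult βVEGF-A; MIP-GFP mice. Every mouse, untreated controls included, carried RIP-rtTA, in which a rat insulin promoter drives the rtTA transactivator in β cells, and TetO-VEGF-A, so that doxycycline (Dox) made their β cells produce human VEGF-A, and MIP-GFP, which marks β cells through a mouse insulin promoter. No group lacked the transgenes, so an effect of the alleles themselves could not be measured. The groups were No Dox (untreated), 1wk Dox (1 week of Dox) and 1wk WD (1 week of Dox followed by 1 week of withdrawal). From dispersed islets, pooled from several mice per sample, β cells were sorted as GFP+ CD31- CD11b-, endothelial cells (ECs) by CD31 and macrophages (MΦs) by CD11b. In this order of groups, the β cells gave 4, 5 and 3 samples, the ECs 4, 1 and 5, and the MΦs 4, 2 and 4. Identifiers in a separate, higher number range were carried by both 1wk Dox MΦ samples, the 1wk Dox EC sample and β cell 1wk WD replicate 3. The labels do not say what that range marks. In MΦs and ECs it coincided with 1wk Dox, so it cannot be told apart from the treatment there.

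Each value is a score, the normalized expression that was deposited as a whole number with a lowest value of 1. Scores summed to 23465985 to 53441769 per sample, which is not read depth, so sampling error could not be computed. The summed score of 8 β cell markers was 501783 to 10888983 in β cells against at most 45997 in the other samples, that of 8 EC markers was 334479 to 511038 in ECs, and that of 8 MΦ markers was 264564 to 446627 in MΦs, and no marker was at the lowest score in its own cell type. The β cell libraries were not alike, and 6 stromal markers summed to 942 and 1023 in No Dox replicates 1 and 2 but to 23878 to 505739 in the other 10. In these bulk samples, fewer cells of a type and less RNA per cell cannot be told apart.

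Cholesterol is built from acetyl units through mevalonate and isoprenoid intermediates. The isoprenoids are joined into squalene, which is oxidised, folded into lanosterol and trimmed to cholesterol. When membranes run low on sterol, SCAP carries the SREBP2 protein encoded by *Srebf2* to the Golgi, where it is cut, and its released part enters the nucleus and activates the genes of the pathway, *Srebf2* among them. When sterol is plentiful, INSIG proteins hold SREBP2 back, and oxysterols activate liver X receptors, which turn on exporters such as *Abca1*. In β cells cholesterol is a component of the insulin granule membrane, and MΦs handle large amounts of cholesterol taken up from other cells.

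The promoters of measured genes are shown because several of these genes varied together among β cell libraries and *Lss* and *Srebf2* were lower in ECs after withdrawal, as described further on. RefSeq windows of 300 bases (250 before to 50 after the start, build GRCm38.p6) were found for 5 of the 8 genes, *Hmgcs1*, *Idi1*, *Lss*, *Cyp51* and *Srebf2*. Capitals mark the CCAAT box (CCAAT) or the GC box (GGGCGG), each searched on both strands, and the sequences are written on the gene's own strand.
Lss, chr10:76531355-76531654 (+): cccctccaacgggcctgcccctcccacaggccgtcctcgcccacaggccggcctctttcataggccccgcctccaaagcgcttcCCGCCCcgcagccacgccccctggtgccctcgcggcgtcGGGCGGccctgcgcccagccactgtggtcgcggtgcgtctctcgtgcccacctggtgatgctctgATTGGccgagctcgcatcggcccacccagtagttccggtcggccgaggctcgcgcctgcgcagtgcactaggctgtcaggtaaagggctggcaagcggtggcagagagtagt
Srebf2, chr15:82147019-82147318 (+): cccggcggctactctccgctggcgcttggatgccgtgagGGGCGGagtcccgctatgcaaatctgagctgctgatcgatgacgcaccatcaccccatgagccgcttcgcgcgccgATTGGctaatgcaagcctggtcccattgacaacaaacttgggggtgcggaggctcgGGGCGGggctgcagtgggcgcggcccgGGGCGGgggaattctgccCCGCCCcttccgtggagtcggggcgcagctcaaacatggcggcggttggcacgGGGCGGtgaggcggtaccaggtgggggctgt
Cyp51, chr5:4104648-4104947 (-): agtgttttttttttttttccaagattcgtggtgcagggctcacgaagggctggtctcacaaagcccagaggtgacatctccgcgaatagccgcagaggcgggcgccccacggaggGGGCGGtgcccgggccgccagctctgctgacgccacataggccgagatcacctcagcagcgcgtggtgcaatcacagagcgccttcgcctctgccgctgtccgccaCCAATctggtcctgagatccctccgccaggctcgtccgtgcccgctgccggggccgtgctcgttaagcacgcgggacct
Idi1, chr13:8885356-8885655 (+): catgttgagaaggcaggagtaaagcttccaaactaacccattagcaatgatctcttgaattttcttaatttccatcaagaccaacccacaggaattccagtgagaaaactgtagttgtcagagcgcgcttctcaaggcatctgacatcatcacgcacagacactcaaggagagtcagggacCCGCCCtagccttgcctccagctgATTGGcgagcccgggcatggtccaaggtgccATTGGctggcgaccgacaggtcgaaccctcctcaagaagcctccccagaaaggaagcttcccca

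A CCAAT box and a GC box were each present in all 5 windows, and in 37.4% and 35.7% of the 32851 mouse promoters in the same reference. *Srebf2* held 5 GC boxes and *Lss* 2, while *Cyp51* and *Idi1* held 1 each. The sterol regulatory core TCACNCCAC, in which N is any base, was found on either strand of 1.24% of all promoters. Among the 5 windows, the *Hmgcs1* promoter alone held these letters. Letters missing from a window of this length do not bear on whether a factor binds there.

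The first comparison asked how the genes differed between the sorted cell types before any VEGF-A was induced. In limma fits across all genes, a gene was called when its Benjamini-Hochberg adjusted p was under 0.05 and its fold change was at least 2. At No Dox, 4 of the 7 measured genes, *Sqle*, *Lss*, *Fdps* and *Cyp51*, were called higher in β cells than in ECs, against 21.2% of all genes tested called higher in β cells. *Sqle*, *Fdps* and *Lss* were also called higher in β cells than in MΦs, where the share over all genes was 23.5%. *Srebf2* was called lower in ECs than in MΦs, the only member so called, beside 17.6% of all genes. No measured gene was called in the opposite direction in any of the 3 comparisons. Groups that did not overlap were common between cell types: over all genes the share was 50.2% between β cells and ECs, 44.6% between β cells and MΦs and 53.1% between ECs and MΦs, beside 5, 2 and 4 of the 7 members.

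*Idi1* encodes the isomerase that makes the second of the isoprenoid building blocks (ENSMUSG00000058258, mm9 chr13:8884747-8891697). Its No Dox scores were 501, 564, 534 and 182 in β cells, 367, 340, 330 and 424 in ECs and 723, 392, 418 and 467 in MΦs. These ranges overlapped in every pair of cell types. The difference between β cells and ECs was 0.16 on the log2(score + 1) scale (95% confidence interval -0.61 to 0.94, adjusted p = 0.726).

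*Fdps* encodes the synthase of farnesyl diphosphate (ENSMUSG00000059743, mm9 chr3:88897514-88905881). At No Dox it scored 388, 371, 259 and 239 in β cells, 132, 120, 147 and 127 in ECs and 137, 198, 62 and 123 in MΦs. Every β cell sample lay above every EC and MΦ sample. The fold change was 2.33 over ECs (log2 1.22, SE 0.36, adjusted p = 0.0157) and 2.55 over MΦs (log2 1.35, SE 0.36, adjusted p = 0.0081).

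*Fdft1* encodes squalene synthase, the first enzyme committed to sterols (ENSMUSG00000021273, mm9 chr14:63763990-63796630). Its scores were 1775, 1276, 1065 and 592 in β cells, 489, 598, 569 and 544 in ECs and 675, 1056, 800 and 713 in MΦs. The fourth β cell sample fell inside the EC range. The difference from ECs passed the adjusted p but stayed just under the fold minimum (fold change 1.99, log2 0.99, SE 0.29, adjusted p = 0.0136).

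*Sqle* encodes squalene epoxidase, which oxidises squalene in a rate-limiting step (ENSMUSG00000022351, mm9 chr15:59146632-59162747). It had the widest spread among β cells at No Dox, with scores of 6277, 6051, 2546 and 1285. ECs scored 581, 689, 621 and 524 and MΦs 1026, 1063, 1179 and 902. All 4 β cell samples were above all samples of the other cell types, the lowest of them only just above the highest MΦ sample. *Sqle* was 5.55-fold higher in β cells than in ECs (log2 2.47, SE 0.42, adjusted p = 0.00043) and 3.22-fold higher than in MΦs (log2 1.68, SE 0.42, adjusted p = 0.0047).

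*Lss* encodes lanosterol synthase, which folds oxidised squalene into the first sterol (ENSMUSG00000033105, mm9 chr10:75994333-76019883). The No Dox scores were 1707, 1466, 1170 and 649 in β cells, 319, 289, 194 and 236 in ECs and 346, 686, 333 and 469 in MΦs. β cells and ECs did not overlap, whereas 1 β cell sample lay below the highest MΦ sample. *Lss* was 4.59-fold higher in β cells than in ECs (log2 2.20, SE 0.33, adjusted p = 0.00021) and 2.67-fold higher than in MΦs (log2 1.42, SE 0.33, adjusted p = 0.0036).

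*Cyp51* encodes the demethylase that removes a methyl group from lanosterol (ENSMUSG00000001467, mm9 chr5:4081145-4104746). It scored 1684, 1398, 907 and 1219 in β cells, 756, 607, 574 and 606 in ECs and 1081, 678, 1130 and 1071 in MΦs. β cells lay above ECs without overlap, and β cells and MΦs overlapped. The fold change over ECs was 2.01, at the fold minimum (log2 1.01, SE 0.22, adjusted p = 0.0029). It dropped below that minimum when any one of β cell replicates 1 and 2 or EC replicates 2, 3 and 4 was left out, with log2 values of 0.87 to 0.99.

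*Srebf2*, like *Idi1*, had its highest mean in MΦs at No Dox (ENSMUSG00000022463, mm9 chr15:81977696-82035806). Its No Dox scores were 2496, 1856, 1741 and 1835 in β cells, 1250, 1253, 1179 and 1233 in ECs and 3581, 2755, 2052 and 3004 in MΦs. ECs were lowest, without overlap with either other cell type, while β cells and MΦs overlapped. *Srebf2* was 2.27-fold lower in ECs than in MΦs (log2 -1.18, SE 0.17, adjusted p = 0.00015). It was 1.60-fold higher in β cells than in ECs (log2 0.67, SE 0.17, adjusted p = 0.0071) and lower in β cells than in MΦs (log2 -0.51, SE 0.17, adjusted p = 0.0266), both under the fold minimum.

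**Figure D1:**
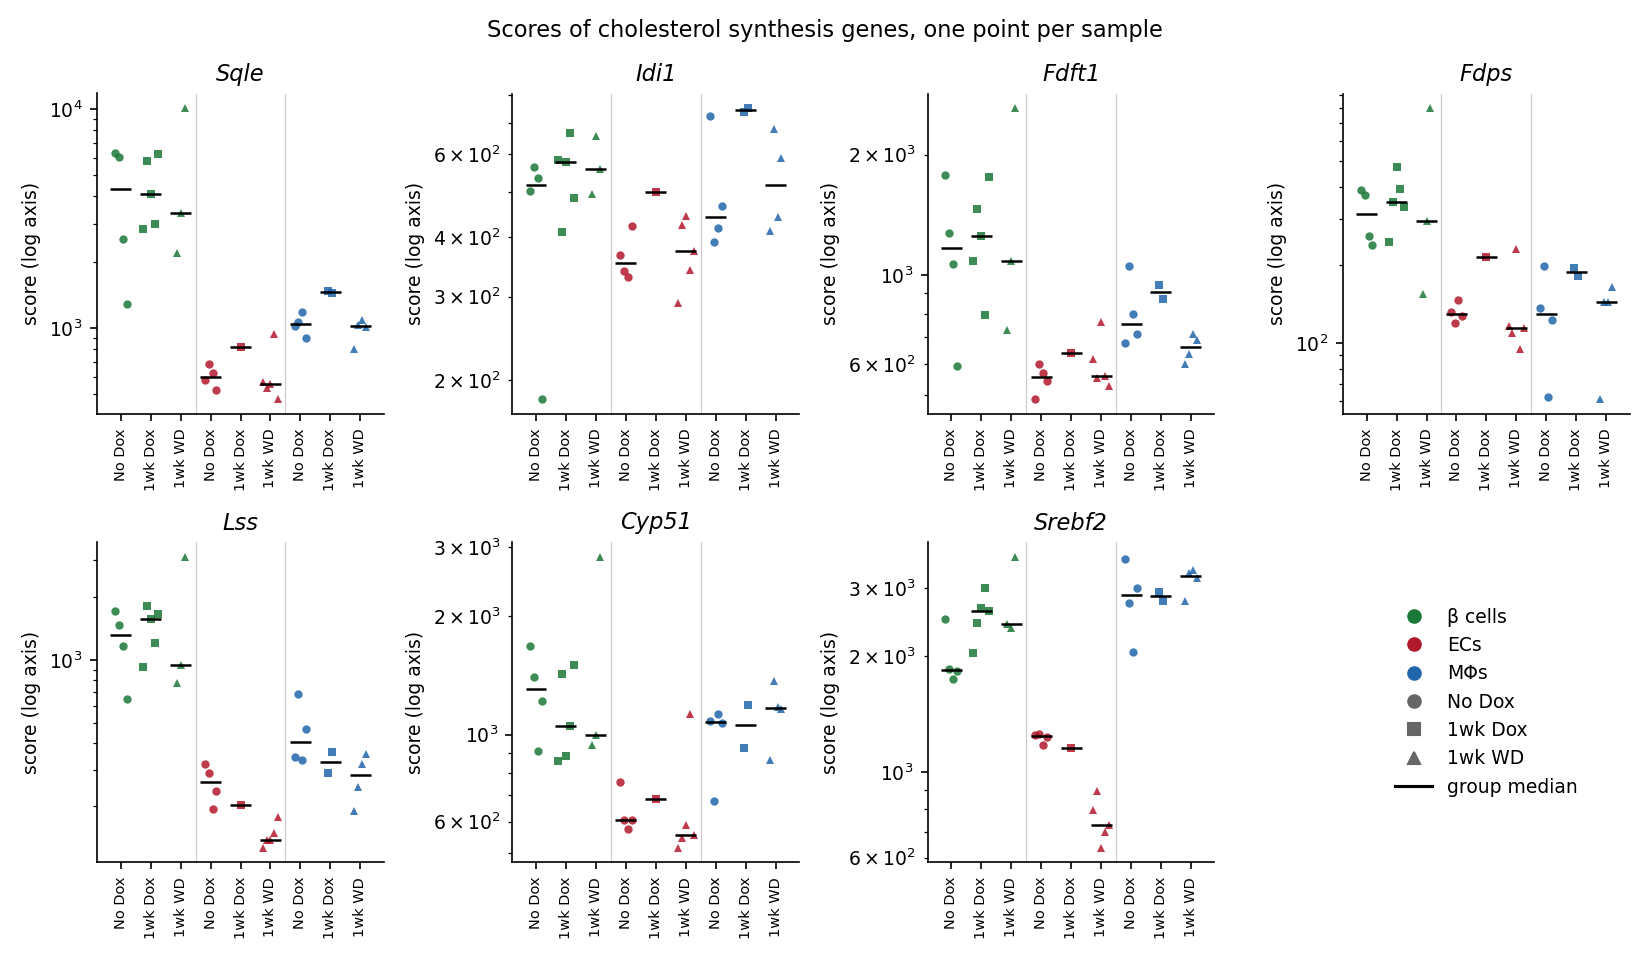
Scores of the 7 measured genes on a log axis, 1 point per sample, by cell type (colour) and treatment (shape), with black lines at group medians (the single EC sample at 1wk Dox has its line through the point). In ECs *Srebf2* ran from 1179 to 1253 at No Dox and from 636 to 894 at 1wk WD, and *Sqle* spanned 1285 to 10120 over the 12 β cell samples.

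At 1wk WD the same comparisons were made in samples collected after VEGF-A had been switched on and off. Here 6 of the 7 genes, all but *Idi1*, were called higher in β cells than in ECs, beside 25.2% of all genes. Against MΦs, *Sqle*, *Lss* and *Fdps* were called higher in β cells, beside 27.0% of all genes. *Srebf2* was again the only member called lower in ECs than in MΦs, beside 20.8% of all genes. *Idi1* scored 494, 655 and 557 in β cells and 291, 426, 445, 341 and 374 in ECs, without overlap, a difference that passed the adjusted p but stayed under the fold minimum (log2 0.60, SE 0.24, adjusted p = 0.0466). It was 0.09 under quantile normalization (adjusted p = 0.774). Between β cells and ECs, β cells and MΦs, and ECs and MΦs, 4, 3 and 2 of the 7 members did not overlap, beside 46.7%, 56.5% and 58.1% of all genes. *Cyp51* differed between ECs and MΦs at both time points without reaching the fold minimum (log2 -0.62, adjusted p = 0.0422 at No Dox and log2 -0.83, adjusted p = 0.0489 at 1wk WD).

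*Lss* scored 772, 950 and 3112 in β cells at 1wk WD against 127 to 178 in ECs and 190 to 355 in MΦs. *Sqle* scored 2207, 3358 and 10120 against 473 to 943 and 802 to 1084. For both genes the lowest β cell sample was above every sample of the other cell types. *Lss* was 8.99-fold higher in β cells than in ECs (log2 3.17, SE 0.40, adjusted p = 2.2e-05), and *Sqle* 7.07-fold (log2 2.82, SE 0.39, adjusted p = 4.4e-05). Over MΦs the fold changes were 4.86 for *Lss* (log2 2.28, SE 0.42, adjusted p = 0.00041) and 4.31 for *Sqle* (log2 2.11, SE 0.40, adjusted p = 0.00058). The third β cell library had an identifier in the separate range, and the sizes depended on this library. Without it, both genes were still called, at 5.85-fold (*Lss*) and 4.56-fold (*Sqle*) over ECs and 3.16-fold and 2.78-fold over MΦs.

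*Srebf2* scored 2419, 2373 and 3627 in β cells, 797, 894, 636, 700 and 730 in ECs and 2781, 3278, 3349 and 3185 in MΦs at 1wk WD. ECs again lay below both other cell types without overlap. They were 4.20-fold lower than MΦs (log2 -2.07, SE 0.16, adjusted p = 1e-07), and β cells were 3.68-fold higher than ECs (log2 1.88, SE 0.17, adjusted p = 1.3e-06).

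The other calls at 1wk WD rested largely on the third β cell library, the only β cell sample set apart by its identifier. *Fdps* scored 155, 295 and 801 in β cells against 95 to 230 in ECs, *Fdft1* 730, 1082 and 2615 against 529 to 763, and *Cyp51* 939, 1000 and 2840 against 515 to 1131. In each gene the third β cell library was well above the other 2, and the lowest β cell sample lay inside the EC range. Log2 differences between β cells and ECs were 1.39 for *Fdps* (SE 0.52, adjusted p = 0.0399), 1.09 for *Fdft1* (SE 0.32, adjusted p = 0.0115) and 1.13 for *Cyp51* (SE 0.36, adjusted p = 0.0180). Without β cell replicate 3, 3 of the 7 genes were called (*Sqle*, *Lss* and *Srebf2*), and the log2 values of these other genes were 0.75, 0.57 and 0.61. *Fdps* also lost its call over ECs without β cell replicate 2 or any one of EC replicates 1, 2, 4 and 5, and over MΦs (log2 1.46, SE 0.55, adjusted p = 0.0355) without β cell replicate 2 or 3 or MΦ replicate 1.

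**Figure D2:**
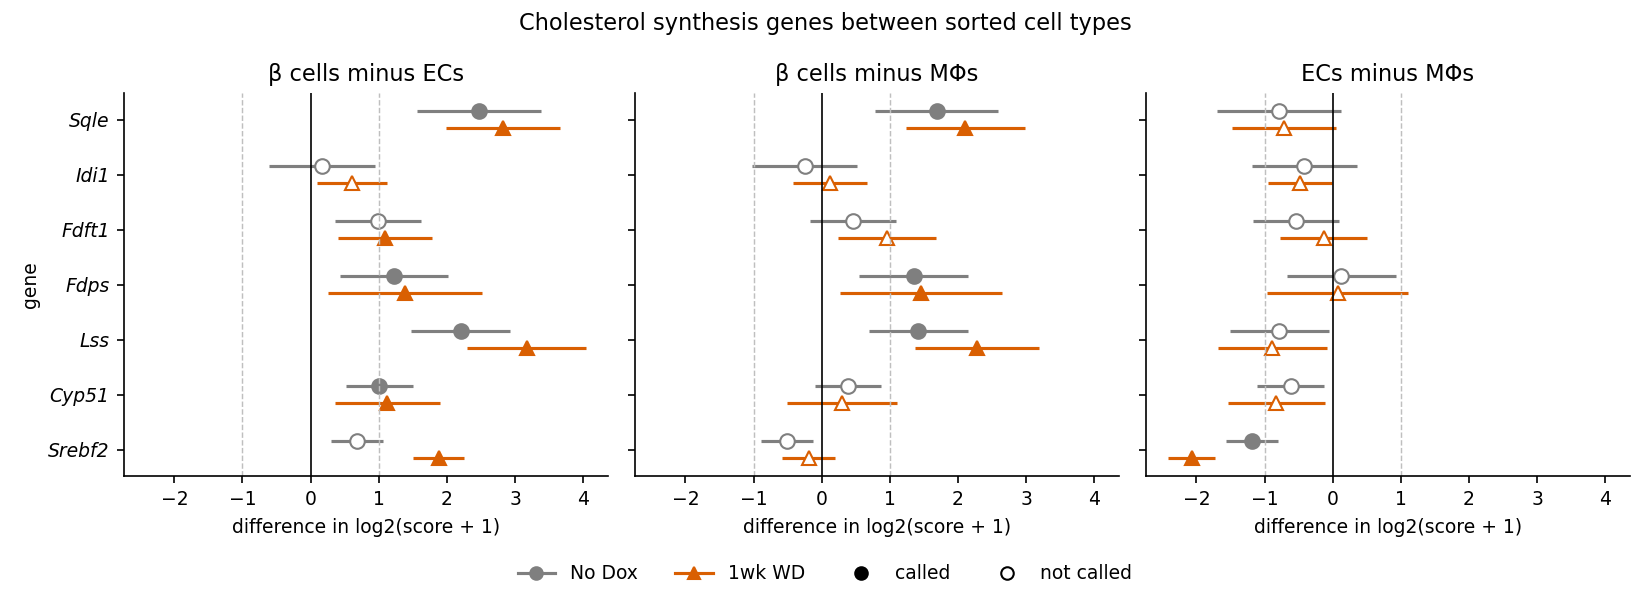
Differences in log2(score + 1) between cell types at No Dox (grey circles) and 1wk WD (orange triangles), with 95% confidence intervals as bars, filled where called. Dashed lines mark the fold minimum. *Lss* and *Sqle* lay beyond it over both ECs and MΦs at both time points, while *Idi1* was called in no comparison, with its largest difference, 0.60, between β cells and ECs at 1wk WD.

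The cell type comparisons depended on how the samples were scaled to each other. Quantile normalization moved the median difference of all genes between β cells and ECs from 0.07 to -0.16 at No Dox and from 0.12 to -0.28 at 1wk WD, and that between β cells and MΦs from 0.12 to -0.05 and from 0.14 to -0.21. The share of called genes that were higher in β cells than in ECs went from 56.2% to 44.5% at No Dox and from 63% to 42.2% at 1wk WD, and over MΦs from 54.5% to 46.9% and from 58.5% to 44%. Under it *Sqle* and *Lss* stayed called over ECs at No Dox, while *Fdps* (log2 0.56, adjusted p = 0.313) and *Cyp51* (log2 0.86, adjusted p = 0.0158) did not. *Fdps* also lost its call over MΦs at No Dox (log2 0.80, adjusted p = 0.144) and at 1wk WD (log2 0.54, adjusted p = 0.495). Over ECs at 1wk WD, *Fdft1* (log2 0.86), *Cyp51* (log2 0.93) and *Fdps* (log2 0.43) were no longer called. *Sqle* and *Lss* kept their calls over both cell types at both time points, and *Srebf2* those it had.

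Among the 12 β cell libraries the members varied together. The highest score over the lowest was 7.88 for *Sqle*, 5.17 for *Fdps*, 4.80 for *Lss*, 4.42 for *Fdft1*, 3.65 for *Idi1*, 3.31 for *Cyp51* and 2.08 for *Srebf2*. In ECs the same ratio was 1.99 for *Sqle* and 2.51 for *Lss*, and in MΦs 1.84 and 3.61. The mean of log2(score + 1) over the 7 genes was highest in β cell 1wk WD replicate 3, at 11.19, and lowest in No Dox replicate 4, at 9.34. After each group's mean was subtracted, 20 of the 21 gene pairs correlated positively in β cells (Pearson's r -0.11 to 0.95, median 0.75, n = 12), as a description of libraries that share their makeup, beside 8 of 21 in ECs (median -0.11, n = 9) and 14 of 21 in MΦs (median 0.25, n = 10).

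Markers of β cells and of other cells also differed between these libraries. The summed β cell marker score was 10888983 in 1wk WD replicate 3 and 628170 in No Dox replicate 4, and the stromal sum was 23878 and 505739, respectively. The 7 acinar markers summed to 327 in the former library and 8884275 in the latter. EC markers summed to 1861, 1398, 3879 and 6483 in the 4 No Dox libraries, 15118 in 1wk WD replicate 3 and 45357, the highest, in 1wk Dox replicate 1, where the member mean was 9.90. MΦ markers summed to 1141, 570, 3002 and 5267 at No Dox and 6346 in 1wk WD replicate 3. No Dox replicates 1 and 2, with the stromal sums of 942 and 1023, had member means of 10.53 and 10.34, and replicates 3 and 4, with stromal sums of 142398 and 505739, had 9.89 and 9.34. Acinar sums over the β cell libraries ran from 202 to 12034595. The part of other cells in the members' values was not tested.

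**Figure D3:**
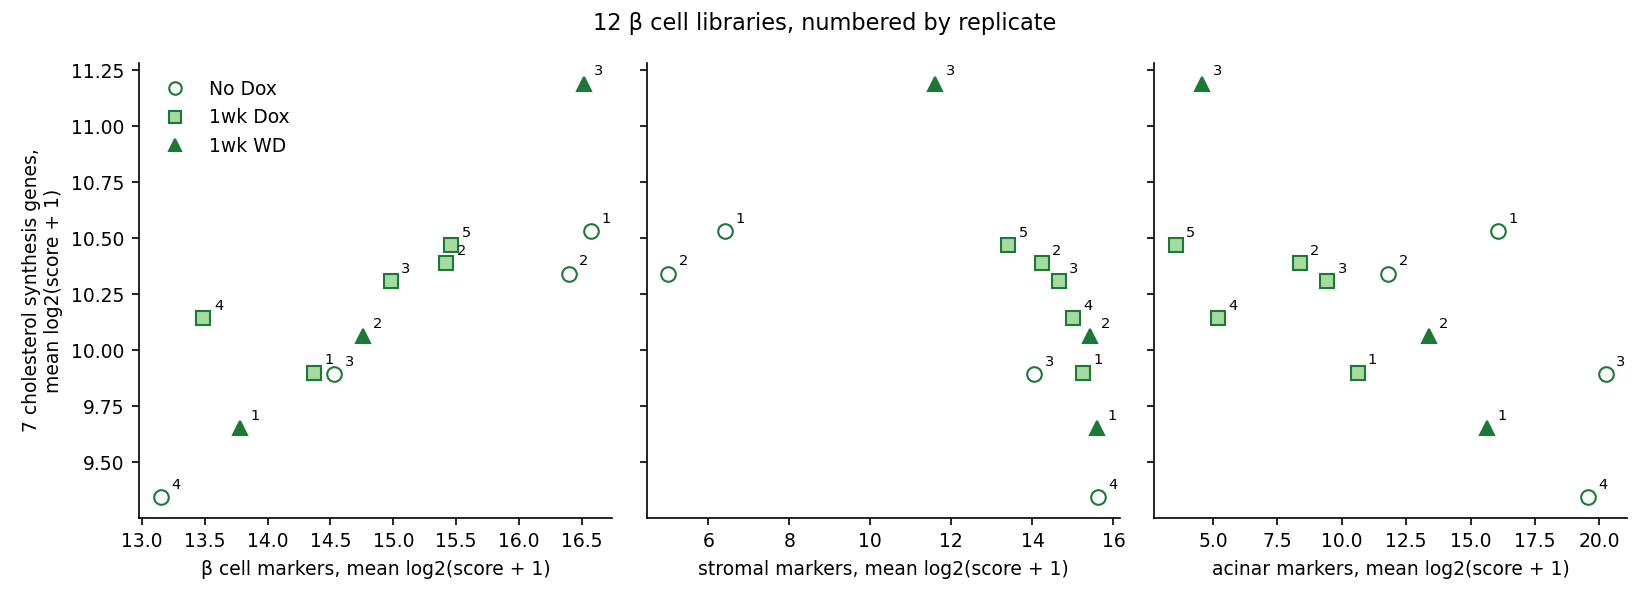
Mean log2(score + 1) of the 7 measured genes in each of the 12 β cell libraries (vertical axis) against the mean of β cell markers (left), stromal markers (middle) and acinar markers (right), with shape and fill for treatment and the replicate number beside each point. The highest member mean, 11.19, was in a library with a β cell marker mean of 16.5, and the lowest, 9.34, in the library with the lowest, 13.1.

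The cell type calls were also computed on subsets of the No Dox β cell libraries, chosen after the data were seen. Replicates 1 and 2 had the higher member means, so more calls in that subset and fewer in the other follow from the split and are given as a description. With replicates 3 and 4 alone, *Sqle* (log2 1.59) and *Lss* (log2 1.77) remained called over ECs, *Fdps* (log2 0.92) and *Cyp51* (log2 0.73) did not, and 0 of the 7 genes were called over MΦs, beside 24.1% and 25.2% of all genes called higher in β cells. Over MΦs, *Sqle* then had a log2 difference of 0.80 (adjusted p = 0.0214) and *Lss* of 0.99 (adjusted p = 0.0428). With replicates 1 and 2 alone, 5 genes were called over ECs and 3 over MΦs, beside 22.8% and 24.9%, and *Sqle* reached log2 3.36 over ECs.

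The time comparisons asked whether the genes changed in β cells as VEGF-A was induced and withdrawn. In β cells 0 of the 7 genes were called by limma between any of the treatment groups. Over all genes, 0.0122% were called at 1wk Dox relative to No Dox, 0.0% at 1wk WD relative to No Dox and 0.0% at 1wk WD relative to 1wk Dox, while 1142, 1336 and 1032 of 16346 genes had an unadjusted p under 0.05. Among the members that count was 0, 1 (*Srebf2*) and 0. No other tool was run.

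*Sqle* at 1wk Dox scored 2829, 5826, 4102, 2997 and 6216 in β cells, all inside the No Dox range of 1285 to 6277. *Srebf2* scored 2043, 2443, 2669, 3014 and 2612 at 1wk Dox, and only 1 of the 4 No Dox samples, at 2496, reached into that range. The log2 difference of *Srebf2* from No Dox was 0.37 at 1wk Dox (95% confidence interval -0.03 to 0.77, adjusted p = 0.736) and 0.49 at 1wk WD (0.03 to 0.94, adjusted p = 0.601). For *Sqle* the interval at 1wk WD ran from -1.01 to 1.68, so that changes beyond the fold minimum in either direction lay within it. The same held of *Fdps* at 1wk WD (-0.94 to 1.17) in the upward direction.

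In MΦs, also, 0 of the 7 genes were called in any time comparison. The share over all genes was 2.26% for 1wk Dox against No Dox, 0.626% for 1wk WD against No Dox and 0.0866% for 1wk WD against 1wk Dox. An unadjusted p under 0.05 was reached by *Sqle* alone in the first, by *Lss* alone in the second and by *Sqle* and *Fdft1* in the third, beside 3200, 2595 and 1456 of 15014 genes.

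*Sqle* scored 1476 and 1451 in the pair of MΦ samples at 1wk Dox, above all 4 at No Dox (902 to 1179) and all 4 at 1wk WD (802 to 1084). *Idi1* scored 736 and 751, above 392 to 723 and 412 to 677. The 1wk Dox samples were the highest for both genes, by a narrow margin for *Idi1*. Both samples carried identifiers in the separate range, so treatment and that range cannot be told apart. The log2 difference from No Dox was 0.50 for *Sqle* (SE 0.18, adjusted p = 0.14) and 0.62 for *Idi1* (SE 0.29, adjusted p = 0.246), neither past the threshold. *Fdft1* (945 and 871) and *Fdps* (195 and 182) were also above all 1wk WD samples, at most 711 and 165, but not above all No Dox samples. With 2 samples at 1wk Dox, 31.1% of all genes had groups that did not overlap between 1wk Dox and No Dox, and 30.7% between 1wk Dox and 1wk WD.

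*Lss* at 1wk WD scored 190, 248, 318 and 355 in MΦs beside 346, 686, 333 and 469 at No Dox. The groups overlapped, and the log2 difference was -0.70 (SE 0.29, adjusted p = 0.243). No Dox replicate 2, the highest for *Lss*, had summed scores of 11000362 for acinar and 45997 for β cell markers, the highest among MΦs. All 7 acinar markers had lower means at 1wk Dox and at 1wk WD than at No Dox in MΦs, 4 of them called lower at 1wk Dox. The 8 EC markers summed to 2874 and 3518 in the 1wk Dox samples, 1288 to 1822 at No Dox and 1725 to 2519 at 1wk WD, and relative to No Dox 7 of their 8 means were higher after Dox, 0 of them called. The part of these cells in the values was not tested.

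In ECs, *Srebf2* fell after withdrawal and *Lss* was lower without passing the test. *Srebf2* scored 1250, 1253, 1179 and 1233 at No Dox and 797, 894, 636, 700 and 730 at 1wk WD. The lowest No Dox sample was well above the highest 1wk WD sample. The fold change was 1.65 (log2 -0.72, SE 0.12, adjusted p = 0.0114), under the fold minimum, so that 0 of the 7 genes were called beside 1.76% of all genes, while *Srebf2* was 1 of 7 with an adjusted p under 0.05 beside 3.9% of all genes. The adjusted p was 0.0095 to 0.0441 over all omissions of 1 sample.

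*Lss* scored 319, 289, 194 and 236 in ECs at No Dox and 127, 139, 139, 150 and 178 at 1wk WD. These groups did not overlap either, though the gap between 194 and 178 was small. Over all genes, 10.7% did not overlap between these EC groups, beside 2 of the 7 members. The log2 difference was -0.80 (SE 0.21, adjusted p = 0.0541). The other 5 genes had log2 differences of -0.05 to 0.13, and their groups overlapped. For *Sqle* the 95% confidence interval ran from -0.43 to 0.41 and for *Idi1* from -0.34 to 0.40, both short of the fold minimum on either side.

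Markers of other cells also differed between these EC groups. The 6 stromal markers summed to 5087 to 11529 at No Dox and 16199 to 69164 at 1wk WD, with 4 of them called higher. The 7 acinar markers summed to 60445 to 1648617 at No Dox and 679 to 59602 at 1wk WD, with all 7 called lower, and EC markers summed to 415293 to 449681 and 334479 to 381790. Over replicates 1 to 5 at 1wk WD, the stromal sums were 47275, 19607, 16199, 69164 and 21326 beside *Srebf2* scores of 797, 894, 636, 700 and 730. The part of other cells in the fall was not tested.

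The single EC sample at 1wk Dox had no replicate and carried an identifier in the separate range. It scored 816 for *Sqle*, 499 for *Idi1*, 640 for *Fdft1* and 215 for *Fdps*, each above the No Dox range, with log2 differences of 0.44, 0.46, 0.22 and 0.71 from the No Dox mean. *Srebf2*, at 1153, was below the No Dox range, and *Lss* (204) and *Cyp51* (684) were inside it. None of the 7 genes differed by 2-fold or more, beside 10.7% of the 14047 genes compared.

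**Figure D4:**
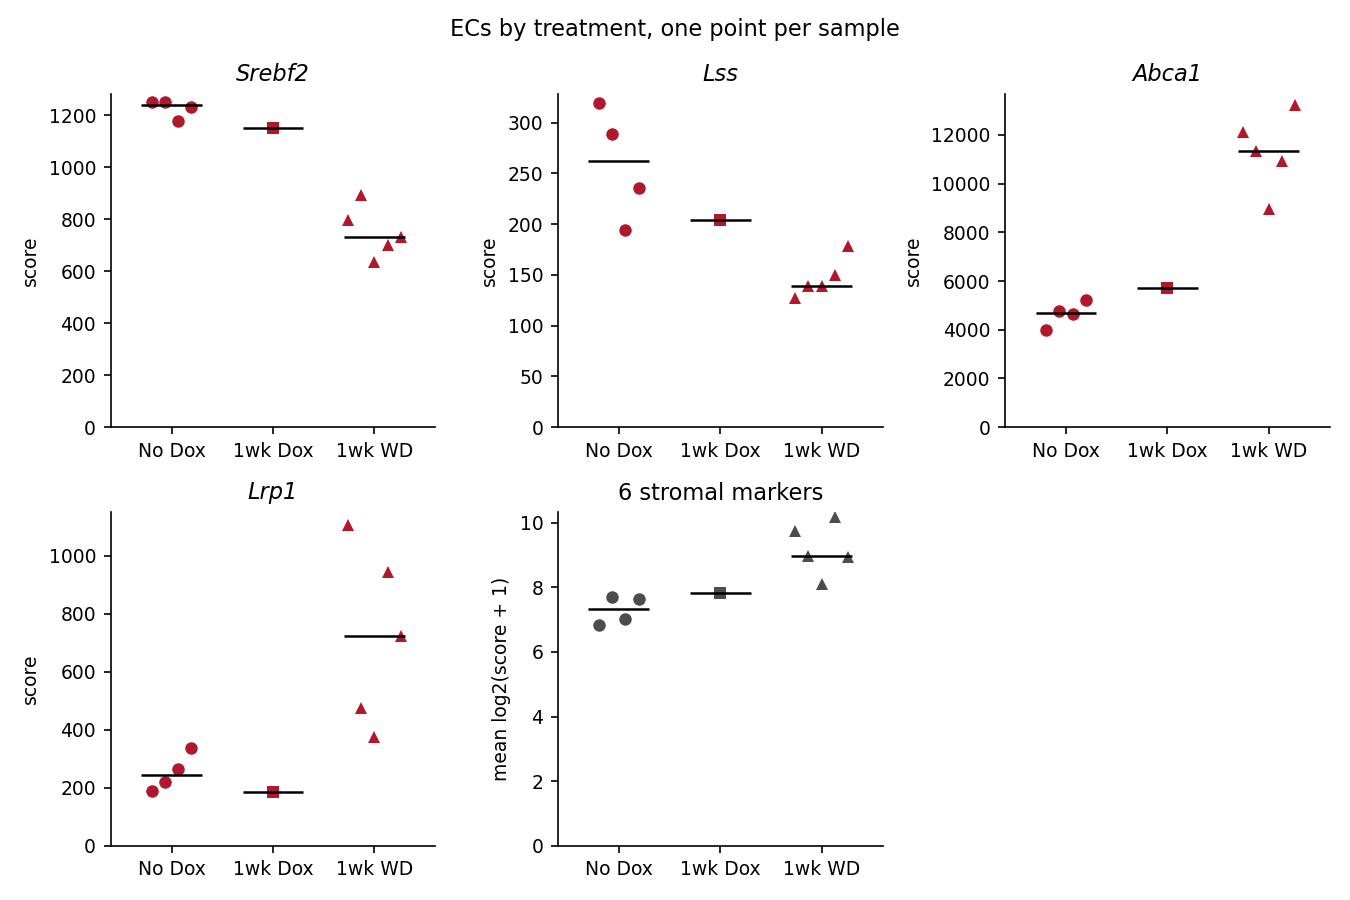
Scores in ECs of 2 members, *Srebf2* and *Lss*, and of *Abca1* and *Lrp1*, related genes called between No Dox and 1wk WD, 1 point per sample with a line at each group's median, and the mean log2(score + 1) of 6 stromal markers in the last panel. *Srebf2* and *Lss* were lower in all 5 samples at 1wk WD than in all 4 at No Dox, and *Abca1*, *Lrp1* and the stromal mean were higher.

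Whether the change from No Dox to 1wk WD differed between cell types was tested as an interaction. *Srebf2* was the only member called, with a change 1.21 log2 units higher in β cells than in ECs (SE 0.24, adjusted p = 0.0293), beside 0.368% of all genes. Its mean log2 score was 10.94 at No Dox and 11.43 at 1wk WD in β cells, a difference that did not pass its own test, and 10.26 and 9.55 in ECs. The call was lost without β cell No Dox replicate 2, any one of the 4 EC No Dox samples, or EC 1wk WD replicate 3 or 4, with adjusted p of 0.0552 to 0.0723, while the difference stayed at 1.15 to 1.23. Between ECs and MΦs the difference for *Srebf2* was -0.89 (SE 0.23, adjusted p = 0.133), and 0 of the 7 were called, beside 0.0356% of all genes and 1 member with an unadjusted p under 0.05. Between β cells and MΦs 0 were called, beside 0.0475%, and 0 had an unadjusted p under 0.05. Under quantile normalization 42.4% rather than 61.3% of the genes called between β cells and ECs, and 31% rather than 75% of those between β cells and MΦs, were higher in β cells.

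Other steps of the pathway were read from lists of related genes, which are not complete. Of 13 further sterol synthesis enzymes, 3 were called higher in β cells than in ECs at No Dox and 0 lower, a share of higher calls close to the 21.2% over all genes. These were *Dhcr7*, which makes cholesterol in the last step (log2 1.77, adjusted p = 0.0029), *Msmo1*, a sterol methyl oxidase (log2 1.35, adjusted p = 0.0041, but 0.82 and not called with β cell replicates 3 and 4 alone), and *Tm7sf2*, a sterol reductase (log2 1.02, adjusted p = 0.0038), which fell under the fold minimum without β cell replicate 4 or EC replicate 1 or 3 (log2 0.90 to 0.97) and lost its call under quantile normalization (log2 0.57, adjusted p = 0.123). The median over the list was 0.13 beside 0.07 over all genes and 1.01 over the 7 members. Genes called between β cells and MΦs at No Dox included *Sc5d*, a sterol desaturase, higher in β cells (log2 1.31, adjusted p = 0.0011), and *Mvd*, a mevalonate pathway decarboxylase, lower (log2 -1.29, adjusted p = 0.0345). The call of *Mvd* was lost without any one of β cell replicates 1, 2 and 4 or MΦ replicates 1 and 4 (adjusted p of 0.0531 to 0.0926).

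At 1wk WD, enzymes of the same list called higher in β cells than in ECs included *Dhcr7* (log2 2.28, adjusted p = 0.00062), *Msmo1* (log2 1.38, adjusted p = 0.0047) and *Mvk*, mevalonate kinase (log2 1.06, adjusted p = 0.0299). None of the 13 was called lower, beside 14.8% of all genes called lower and 25.2% called higher. Without β cell replicate 3, *Dhcr7* was still called (log2 1.56), whereas *Msmo1* (log2 0.93) and *Mvk* (log2 1.00, adjusted p = 0.0621) were not, and *Mvk* also lost its call without β cell replicate 1 or EC replicate 4 or 5. Quantile normalization brought *Mvk* to log2 0.10 (adjusted p = 0.837). Against MΦs at 1wk WD, 2 of the 13 were called higher in β cells and 2 lower, beside 27.0% and 19.2% of all genes. The higher ones were *Dhcr7* (log2 1.77, or 1.05 without β cell replicate 3) and *Msmo1* (log2 1.25), of which *Msmo1* was not called without β cell replicate 3 (log2 0.80) or under quantile normalization (log2 0.92). *Mvd* was lower (log2 -2.16, adjusted p = 0.0037), a call kept under all 18 alternatives run. The other was *Pmvk*, phosphomevalonate kinase (log2 -1.06), which fell short of the fold minimum without β cell replicate 1 or MΦ replicate 1 or 2. In MΦs *Ebp*, a sterol isomerase, scored 890 and 636 at 1wk Dox and 227 to 407 at No Dox (log2 1.34, SE 0.28, adjusted p = 0.0205), and the call was lost without either 1wk Dox sample (adjusted p = 0.0806 and 0.47). These were also the MΦ samples with the highest EC marker sums, 2874 and 3518, and the part of ECs in the score was not tested.

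The genes that control SREBP, 7 in the list, held 0 called higher and 1 called lower in β cells than in ECs at No Dox, beside 21.2% and 16.5% of all genes. This was *Stard4*, a carrier of cholesterol between membranes (log2 -2.59, adjusted p = 5.4e-06). It was also higher in ECs than in MΦs (log2 1.97, adjusted p = 3.4e-05), so that ECs had the highest *Stard4* and the lowest *Srebf2* of the 3 cell types at No Dox. Over time in ECs, *Stard4* scored 2362 to 2703 at No Dox and 3324 to 4268 at 1wk WD. These groups did not overlap, as in 10.7% of all genes, and 0 of the 7 genes of this list were called. At 1wk WD *Srebf1*, which encodes the related factor SREBP1, was called higher in β cells than in ECs (log2 1.45) and in MΦs (log2 1.11), and *Insig2*, a retention protein, higher in β cells than in MΦs (log2 1.34). The β cell scores of *Srebf1* were 1862, 2273 and 6186, and without the third library neither call was kept (log2 0.92 over ECs and 0.58 over MΦs). Of the 4 genes of side branches, *Dhdds*, for dolichol, was called higher (log2 1.03) and *Pdss1*, for coenzyme Q, lower (log2 -1.26) in β cells than in ECs at No Dox. The call of *Dhdds* was lost without β cell replicate 1 (log2 0.83) or 2 (log2 0.85), and that of *Pdss1* with β cell replicates 3 and 4 alone (log2 -0.90).

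Of 8 uptake and lysosomal release genes, 4 were called lower and 1 higher in β cells than in ECs at No Dox, and 7 lower and 1 higher than in MΦs. Over all genes, 16.5% were called lower and 21.2% higher than in ECs, and 19.7% lower and 23.5% higher than in MΦs. Calls of 2 of the 7 genes over MΦs, *Lrp1* among them, were lost without β cell replicate 1 or 2. At 1wk WD, 4 were called lower and 2 higher in β cells than in ECs, beside 14.8% of all genes called lower and 25.2% called higher. *Scarb1*, the receptor for high-density lipoprotein, was highest in ECs (log2 -4.15 in β cells against ECs, adjusted p = 3.9e-07, and 2.63 in ECs against MΦs, adjusted p = 7.3e-06). *Lipa*, the lysosomal lipase, was lower in β cells than in MΦs (log2 -3.81, adjusted p = 7.7e-06), and *Vldlr*, a lipoprotein receptor, was higher in β cells than in ECs (log2 6.19, adjusted p = 0.00099). In ECs *Lrp1*, a scavenging receptor, scored 187 to 338 at No Dox and 375 to 1105 at 1wk WD (log2 1.44, SE 0.30, adjusted p = 0.0228). Stromal sums in these EC groups were 5087 to 11529 and 16199 to 69164, and the part of stromal cells in this rise was not tested. In β cells *Lrp1* scored 216 and 230 in No Dox replicates 1 and 2, the libraries with the lowest stromal sums, and 2930 to 35915 in the other 10. Its call in ECs was lost without any one of EC No Dox replicates 1, 2 and 3.

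Of 9 efflux, ester and oxysterol genes, *Abca1*, the exporter of cholesterol, changed most clearly in ECs. It scored 4000, 4765, 4646 and 5232 in No Dox samples, 5727 in the single 1wk Dox sample and 12111, 11350, 8948, 10944 and 13236 at 1wk WD. Every 1wk WD sample was above every other EC sample. The fold change was 2.42 (log2 1.27, SE 0.12, adjusted p = 0.00077), and it was called under all 21 alternatives run. *Abca1* was the only gene of the 9 called in ECs, beside 1.76% of all genes, and 4 had lower means at 1wk WD. The median of the list was log2 0.01, beside 0.003 over all genes. In MΦs, where both 1wk Dox samples had identifiers in the separate range, *Abca1* scored 13133 to 15405 in untreated samples. It scored 21563 and 20258 after Dox and 20697 to 24257 after withdrawal, with log2 differences from No Dox of 0.58 (SE 0.13, adjusted p = 0.0322) and 0.70 (SE 0.11, adjusted p = 0.0133) that stayed under the fold minimum. *Nr1h3*, which encodes a liver X receptor, was called higher in MΦs at 1wk Dox (692 and 549 against 137 to 267, log2 1.63, SE 0.32, adjusted p = 0.0181), a call lost without either 1wk Dox sample (adjusted p = 0.0947 and 0.408).

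In β cells *Abca1* scored 16990 and 17221 in No Dox replicates 1 and 2 but 8629 and 6766 in replicates 3 and 4, and 5245, 8090 and 13603 at 1wk WD. Its change from No Dox to 1wk WD was 1.73 log2 units lower in β cells than in ECs (SE 0.37, adjusted p = 0.0432), and with replicates 3 and 4 alone at No Dox this was -1.15 (adjusted p = 0.103). The call was kept under 13 of 29 alternatives. Of the omissions of 1 sample, those of β cell No Dox replicate 3 or 4 or 1wk WD replicate 3 kept it, and every other one, in β cells or ECs, lost it, with adjusted p of 0.0551 to 0.103 and differences of -1.81 to -1.40.

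Fatty acid synthesis is a neighbouring pathway that also uses cytosolic acetyl units. Of its 8 listed genes, 3 were called higher in β cells than in ECs at No Dox and 0 lower, beside 21.2% of all genes called higher, while 2 of the 8 had lower means. Over MΦs 4 were called higher and 0 lower, beside 23.5%. *Acly*, which makes cytosolic acetyl-CoA, had log2 differences of 2.68 over ECs (adjusted p = 0.00013) and 2.96 over MΦs (adjusted p = 5.2e-05). *Fasn*, fatty acid synthase, was higher than in ECs (log2 2.38, adjusted p = 2e-05). The remaining gene called over ECs was *Me1*, malic enzyme (log2 1.43, adjusted p = 0.0346), whose call was lost without any one of β cell replicates 1 and 2 or the 4 EC samples (adjusted p of 0.0558 to 0.0895). No gene of this list was called in any time comparison.

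Across all 32 samples, 12997 genes were ranked by Pearson's r between their log2 scores, centred on the mean of each cell type, and the members' mean so centred, as a description. Members took part in their own mean, and ranked from first (*Sqle*, r = 0.89) to 1343rd (*Idi1*, r = 0.50). The 10 genes outside the set with the highest r were *Dpp9* (0.86), *Ubqln2*, *Rwdd1*, *Gosr2*, *Pdcd6ip*, *Aars*, *Pkm2*, *Prepl*, *Rpn2* and *Hipk2* (0.82). The r of *Dpp9* was 0.93 within β cells, 0.66 within ECs and 0.59 within MΦs. Of the pathway lists, *Dhcr7* (0.80, rank 29) and *Acly* (0.79, rank 30) came highest.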

How the data were processed

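RNA from the sorted cells was amplified (NuGEN Ovation), and the libraries were sequenced as pairs of reads on an Illumina instrument. The authors mapped the reads to the mouse genome mm9 with TopHat (TopHat2 2.0 in the submitters' processing notes) and quantified transcripts in the Avadis NGS software with TMM normalization. The gene annotation version is not given in the sources used here. The deposited values are scores, TMM-normalized expression rounded to whole numbers from 1 upward. They are not counts, so no count model was used, the depth is unknown and the precision of a low score cannot be stated. Amplification can distort the level of single genes. The sources differ on the lowest RNA integrity accepted and on the fragment length. Islets of several mice were pooled per sample, so p-values measure the spread between pools.

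Samples were grouped by their labels. The table held 38 columns of scores, of which 6 were not used because no sample of the series matched them. One title spelled the β cells differently and was taken as β cells by its other labels. A gene entered a fit if its group mean reached a score of 20 in any group, and was tested on log2(score + 1) by limma's empirical Bayes with a trend (version 3.58.1, R 4.3.3). It stands in for the z-score test of the authors, which could not be rebuilt from its description. Fold changes on this scale understate those of low scores. Separate fits held the β cell groups, the MΦ groups, the ECs at No Dox and 1wk WD, the cell types at No Dox, the cell types at 1wk WD, and all No Dox and 1wk WD groups for the interaction. The Benjamini-Hochberg adjustment covered every gene of a fit, and a gene was called at an adjusted p under 0.05 and a fold change of at least 2. Comparisons of one cell type share its No Dox samples. The fits were tested on simulated data.

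The members and the lists of related genes and cell type markers (β cells, ECs, MΦs, other islet cells, acinar, ductal, stromal, lymphocytes) were chosen with earlier results of these data known. All members are named. Of each other list, the genes called in a comparison come first and otherwise those with the largest change, with up to 6 named. Marker and member means are means of log2(score + 1). Alternatives were other pseudocounts, filters, scalings, thresholds and fits, the replicate number as a block, and leaving out each sample in turn, applied after the data were seen also to the related genes called between cell types. Subsets of the No Dox β cell libraries were added after the data were seen. Replicate numbers are not said to mark shared mice. Pathway lists are not complete, and some genes of cholesterol handling are not reported here. Promoter sequences are from RefSeq. Python 3.11.15 with pandas 2.3.3 and matplotlib 3.10.9 was used for the other steps.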

Additional observations from a re-analysis of the deposited data

Results flagged for a closer look

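Of 42 gene and group pairs of 4 or 5 samples, 6 held a sample far from the others by Dixon's criterion, of which chance gives about 1 in 20. In β cells at No Dox, replicate 4 had an *Idi1* score of 182 (the others 501 to 564), and replicate 1 had a *Srebf2* score of 2496 (the others 1741 to 1856). In MΦs at No Dox, replicate 2 had a *Cyp51* score of 678 (the others 1071 to 1130). In ECs at 1wk WD, replicate 4 had scores of 943 for *Sqle* and 1131 for *Cyp51*, beside at most 566 and 587 in the others, and replicate 3 scored 230 for *Fdps*, beside at most 117.

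The change from No Dox to 1wk WD differed between β cells and ECs for *Srebf2*, by 1.21 log2 units (higher in β cells), and for *Abca1*, by -1.73 (lower in β cells), both by limma's interaction term. The call of *Srebf2* was lost without any one of 7 samples, and that of *Abca1* was kept under 13 of 29 alternatives, with an adjusted p of up to 0.103 when 1 sample was left out.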

How the results depend on the processing

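No call of a member, or of a related gene followed through the alternatives, changed direction; marker and proliferation genes were not followed. Of 350 counts of called members, 332 stayed within 1.5 times the reported count. With no minimum fold, 1 member was called over time in ECs, and 2 in the contrast of ECs with MΦs at either time point, beside 3.9%, 43.2% (No Dox) and 54% (1wk WD) of all genes. With quantile normalization, 2 were called between β cells and ECs at No Dox and 3 at 1wk WD. With β cell No Dox libraries 3 and 4 alone, 2 were called over ECs and 0 over MΦs. Leaving out 1 sample gave 3 to 6 members called in β cells over ECs at 1wk WD (3 without β cell replicate 3), 1 to 2 between ECs and MΦs at 1wk WD (2 without EC replicate 4 or MΦ replicate 1), and 0 to 1 for the response of β cells against ECs.

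Replicate numbers of the titles showed no consistent pairing: same-numbered samples had correlations of deviations from -0.48 to 0.38. For some samples these numbers differ from those in the labels of the scores, which were not used to pair. Whether the cell types were sorted from shared pools was therefore not settled. With the replicate block, the response of β cells against ECs had 0 members called instead of 1 (*Srebf2*, log2 1.19, adjusted p = 0.0723), and the counts of members in the other comparisons stayed within 1.5 times.

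Of 93 member values that were not called, 48 changed sign under 1 or more alternatives and 9 were called under 1 or more. Of 570 values of called or near-threshold genes, 76 lost their side of the threshold and 1 gained it. Depth cannot be recovered from the scores, so what it limits is unknown. The spread between β cell libraries (median residual SD of 0.61 on the log2 scale, against 0.28 in ECs and 0.35 in MΦs) also limits the β cell comparisons.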

Other observations

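Other lists were measured beside the members. Of 6 proliferation genes, 3 were called higher in MΦs at 1wk Dox than at No Dox, beside 2.26% of all genes called, *Ccnb1* (log2 2.35), *Mki67* (1.18) and *Ccna2* (1.16), and *Mki67* scored 16060 in the single EC sample at 1wk Dox beside 1852 to 3545 in ECs at No Dox. These 1wk Dox samples of MΦs and ECs carried identifiers in the separate range. Markers of other islet cells summed to 24135 to 213798 in β cells and to at most 32420 in the other cell types. Ductal markers summed to 2912 to 9076 in β cells, at most 637 in ECs and 1435 to 3515 in MΦs, and lymphocyte markers to at most 3868, 73 and 725.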
